A study of Caenorhabditis elegans with 8 samples.

Results

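The 3 anillin genes of Caenorhabditis elegans, ani-1, ani-2 and ani-3, were followed in the RNA of first-stage (L1) larvae of 4 genotypes. They were found by WormBase symbol among the genes of the count table, all 3 had counts in every library, and all 3 were among the 14355 genes that passed the filter on low counts. The family was chosen by a measured value: ani-2 stood out for its rise in lamin Y59C larvae against wild-type. That rise is therefore given as a description without a test. The genes ani-1 and ani-3 came in by name.

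Anillin is a conserved scaffold of the contractile ring, where it links actin, non-muscle myosin and septins while a cell divides. In C. elegans, ANI-1 is the form that organises the ring and the contractile cortex of dividing cells. ANI-2 is a shorter form without the actin- and myosin-binding part of ANI-1, and is known for lining the openings through which germ cells join a shared cytoplasmic core, the rachis. In the L1 gonad the germ line is still a pair of primordial germ cells, which keep a stable intercellular bridge. ANI-3 is also a shorter form and is the least studied of the family.

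Each genotype had 2 libraries, a and b, so there were 8 in all. The double mutant carried cec-4(ok3124), a deletion of the gene for the heterochromatin anchor CEC-4, together with the integrated transgene ygIs, which drives GFP-tagged lamin with the Y59C substitution from the baf-1 promoter and carries unc-119(+) in the unc-119(ed-3) background. Lamin Y59C larvae carried that transgene and background with intact cec-4, the cec-4 mutant carried cec-4(ok3124) alone, and the wild-type was N2 Bristol. The mutant lamin was thus added to the endogenous lamin, and in all comparisons here the lamin mutation cannot be told apart from the presence of a transgene, its unc-119(+) marker or the unc-119(ed-3) background. Eggs hatched over 16 h in M9, the larvae then had food for 2.5 h, and animals without a green balancer were sorted. Nothing in the labels says that the libraries of a genotype came from separate cultures, so the p-values measure the spread between these libraries, which may be technical.

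Library totals were 30924676 to 57069281 counts. In the genotype check, cec-4 was at 4.35 and 4.61 CPM (the count as a share of the TMM-scaled library total) in the double mutant and at 4.76 and 5.04 CPM in the cec-4 mutant, against 12.3 CPM in both lamin Y59C libraries and 12.7 and 14.5 CPM in wild-type. Muscle, gut, nerve and epidermal marker genes had counts in every library, though not at even levels. The epidermal marker dpy-7 ran from 0.126 to 2.59 CPM over the 8 libraries, and whether stage differed between libraries was not tested. Of 20 adult yolk and sperm genes, 9 to 14 were at 0 in a library, and their summed level was 2.33 to 3.50 CPM, so the defining transcripts of adults were at or near 0.

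Transcripts of ani-2 (WBGene00019608, II:6361159-6365367 on the minus strand, WBcel235) were about 3 times as frequent in the 2 genotypes with the transgene as in the 2 without it. In the double mutant the gene had 807 and 770 counts, or 24.7 and 24.6 CPM. In lamin Y59C it had 734 and 681 counts, or 23.1 and 21.5 CPM. The cec-4 mutant had 262 and 291 counts, or 8.57 and 7.61 CPM, and in wild-type 246 and 471 counts, or 7.72 and 8.36 CPM. All 4 libraries with the transgene lay above all 4 without it, and the cec-4 mutant libraries overlapped those of wild-type.

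**Figure D1:**
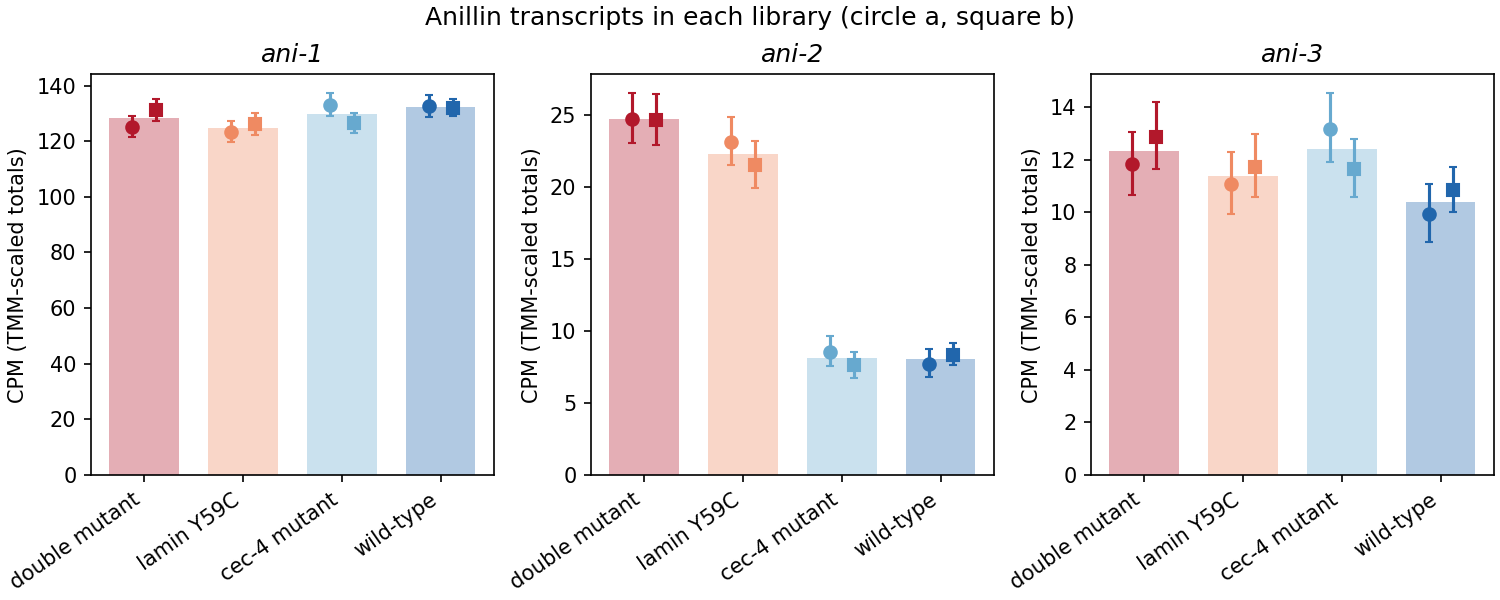
CPM of ani-1, ani-2 and ani-3 in each library (circles a, squares b), with bars at the mean of each genotype (n = 2) and lines for the 95% Poisson interval, which covers counting error only. For ani-2 the double mutant and lamin Y59C libraries lie between 21.5 and 24.7 CPM and the cec-4 mutant and wild-type libraries between 7.61 and 8.57 CPM; ani-1 and ani-3 show no such step.

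The comparison that shares no library with the choosing contrast is the double mutant against the cec-4 mutant. It asks for the effect of the transgene strain in larvae that lack CEC-4. The level of ani-2 in the double mutant against wild-type was already known when this comparison was picked. Its p-value is therefore not independent support. There ani-2 averaged 24.69 ± 0.0635 CPM in the double mutant and 8.09 ± 0.674 CPM in the cec-4 mutant (SD, n = 2 each). The SD in the double mutant was 0.257% of the mean, below the counting error of 3.56%, so it understates the error. The level of ani-2 rose by 1.61 ± 0.09 on the log2 scale (SE, 95% interval 1.41 to 1.81), which is 3.06-fold (adjusted p = 7.74e-05 by the quasi-likelihood test of edgeR, adjusted over all genes tested by the Benjamini-Hochberg method). In this comparison 111 of 14355 genes were called, 0.773%, and 38 of them were higher. A larger log2 change was held by 10 of all 14355 genes tested, and by 2 of the 9692 whose mean reached 5 CPM. The rise was called under every other setting tried and whichever library was left out, with values of 1.53 to 1.70 and an adjusted p of at most 0.00283. A whole-larva sample cannot tell more cells that hold a transcript from more RNA per cell.

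In the contrast that chose the gene, lamin Y59C larvae averaged 22.3 ± 1.16 CPM of ani-2 and wild-type larvae 8.04 ± 0.451 CPM (SD, n = 2 each), a log2 difference of 1.47 or 2.76-fold. Of all 14355 genes tested 16 had a larger one, and 0 of the 9692 whose mean reached 5 CPM. Since this contrast chose the gene, its rank here is a description only. The double mutant differed from wild-type by 1.61, a comparison that shares the wild-type libraries with the one before it.

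The effect of losing CEC-4 on ani-2 is given as values only, since these comparisons use the lamin Y59C or wild-type libraries on which the gene was chosen. Against wild-type, its change in the cec-4 mutant was -0.0014 ± 0.094 (SE), and the libraries overlapped. In the double mutant it averaged 24.69 ± 0.0635 CPM and in lamin Y59C 22.3 ± 1.16 CPM (SD, n = 2 each), a change of 0.15 ± 0.08 (SE). Both double mutant libraries lay above both lamin Y59C libraries. The interaction, the transgene effect without CEC-4 minus the effect with it, was 0.15 ± 0.12 (SE). Of all genes tested, 0.0209% were called for the cec-4 mutant and 0.676% for the double mutant set against lamin Y59C, and the interaction called 0.0348%. By mean level the order was the double mutant, lamin Y59C, the cec-4 mutant and wild-type, and only the last pair overlapped. For ani-2 and every other gene here, the share of all genes whose libraries separate in such a way is not given. Statements that libraries did or did not overlap are therefore descriptions only.

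**Figure D2:**
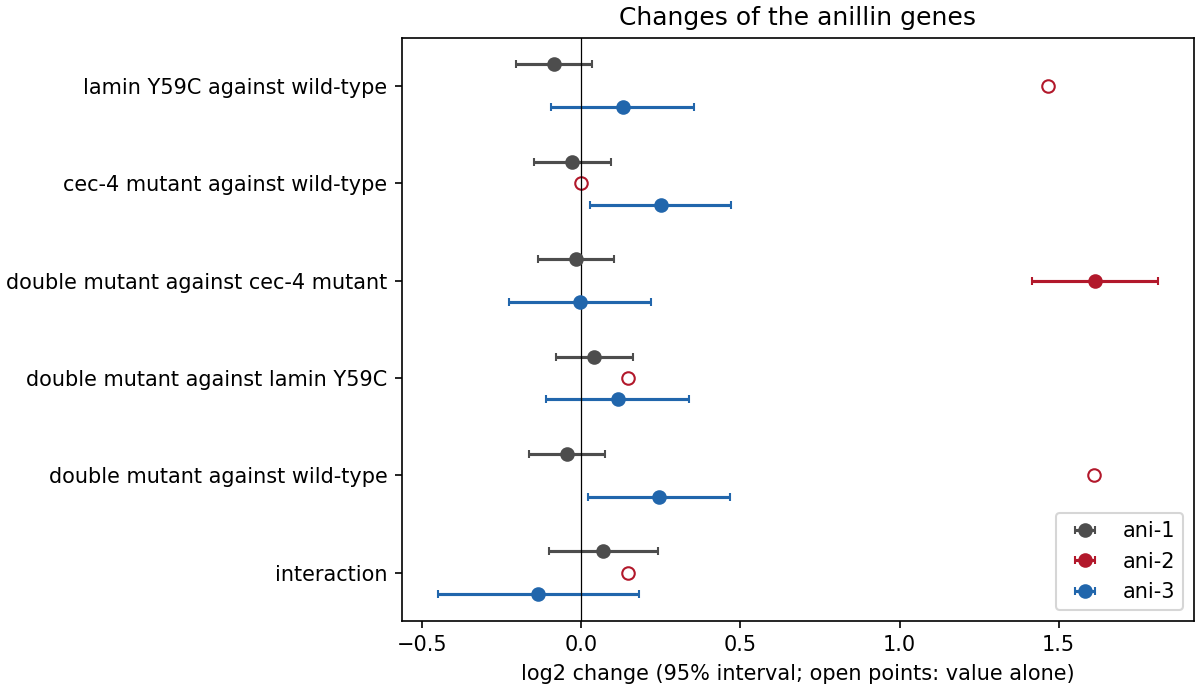
Log2 change of each anillin gene in the 6 comparisons, with 95% intervals from the fit to all 8 libraries; the open points of ani-2 are values without a test. The interval of ani-2 in the double mutant against the cec-4 mutant runs from 1.41 to 1.81, and every other interval drawn lies within -0.45 to 0.47.

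The ring-organising gene ani-1 (WBGene00013038, III:12446348-12453375, minus strand) was the most abundant of the family and was called in none of the 6 comparisons. It had 125 and 131 CPM in the double mutant and 123 and 126 CPM in lamin Y59C. The cec-4 mutant libraries had 133 and 126 CPM, and in wild-type 133 and 132 CPM. The spread over all libraries was thus 123 to 133 CPM. The lamin Y59C libraries lay below the wild-type libraries, with a change of -0.09 ± 0.05 (interval -0.21 to 0.04, adjusted p = 0.517) where 0.509% of genes were called. In the double mutant against the cec-4 mutant the change was -0.02 ± 0.05 (interval -0.14 to 0.10, adjusted p = 0.937). With 3917 to 7438 counts per library, the counting error of ani-1 was 1.16% to 1.60%, so of the 3 genes it was measured most precisely.

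The short form ani-3 (WBGene00012835, V:19697732-19705212, plus strand) was not called in any comparison either. It was at 11.8 and 12.9 CPM in the double mutant, and at 11.1 and 11.7 CPM in lamin Y59C. The cec-4 mutant had 13.2 and 11.6 CPM and wild-type had 9.92 and 10.8 CPM. The wild-type libraries were the lowest, and the other genotypes overlapped except that both double mutant libraries were above both lamin Y59C libraries. The change against wild-type was 0.25 ± 0.10 in the cec-4 mutant (unadjusted p = 0.0306, adjusted p = 0.897, edgeR) and 0.24 ± 0.0997 in the double mutant against wild-type (unadjusted p = 0.0340, adjusted p = 0.242), where 2.21% of genes were called. In lamin Y59C against wild-type it was 0.13 ± 0.10 (interval -0.09 to 0.35, adjusted p = 0.605), and in the double mutant against the cec-4 mutant -0.0049 ± 0.0999 (interval -0.23 to 0.22, adjusted p = 0.98998). These intervals do not reach the change of ani-2.

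Per length, the order of the family differed between genotypes. Levels were divided by annotated exon length, which is 3950 bases for ani-1, 3555 for ani-2 and 2369 for ani-3; the annotation has 2 transcripts of ani-1 and 1 each of the others, with longest coding regions of 1159, 1009 and 709 codons. On this RPKM scale the double mutant had 31.7 and 33.2 of ani-1, 6.96 and 6.93 of ani-2, and 4.99 and 5.43 of ani-3. Wild-type had 33.6 and 33.4 of ani-1, 2.17 and 2.35 of ani-2, and 4.19 and 4.58 of ani-3. The level of ani-2 was therefore 1.28 to 1.39 times that of ani-3 in the double mutant and 1.22 to 1.39 times in lamin Y59C, against 0.433 to 0.436 times in the cec-4 mutant and 0.514 to 0.519 times in wild-type. In every library ani-1 was highest, at 4.56 to 5.28 times ani-2 where the transgene was present and 13.98 to 15.5 times where it was not. Averaged over the 8 libraries, 76.9% of tested genes with an annotated length had a lower RPKM than ani-1, 33.8% a lower one than ani-2 and 35.4% a lower one than ani-3.

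Genes of the contractile ring and the spindle midzone had medians near or slightly below 0 in the comparisons given here. In the double mutant against the cec-4 mutant, both edgeR and DESeq2 called 0 of 12 genes of the contractile ring and cortex and 0 of 7 genes of the spindle midzone and chromosomal passenger complex, where 0.773% of all genes were called, so that a list of this size would seldom hold a call. At an unadjusted p under 0.05 there were 2 in the first list and 0 in the second, beside 13.2% of all genes. Both list medians were -0.02, beside -0.0021 over all genes tested. In lamin Y59C against wild-type edgeR and DESeq2 again called 0 in each list, where edgeR called 0.509% of all genes. At an unadjusted p under 0.05 there were 0, beside 14.6% of all genes. Above 0 were 2 of 12 ring genes and 2 of 7 midzone genes, beside 51.4% of all genes, with medians of -0.07 and -0.04. In the double mutant against wild-type 2 of 12 and 3 of 7 were above 0, beside 51.3%, with medians of -0.06 and -0.0037. There 3 ring genes and 1 midzone gene had an unadjusted p under 0.05, beside 17.4% of all genes. In that comparison edgeR called 0 in each list, where it called 2.21% of all genes. The bundling protein gene plst-1, the ring member with the smallest adjusted p, was at 65.5 ± 1.51 CPM in the double mutant and 74.8 ± 0.133 CPM in wild-type (-0.19 ± 0.05, adjusted p = 0.103). The septin gene unc-59 was at 28.7 ± 0.392 CPM in the double mutant and 32.6 ± 0.195 CPM in wild-type (-0.18 ± 0.06, adjusted p = 0.135).

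Of the 11 genes that act with ani-2 at germline bridges, 3 had a log2 value above 0 in the double mutant against the cec-4 mutant, beside 49.4% of all genes, and the median was -0.0072. In lamin Y59C against wild-type 0 of 11 were above 0, beside 51.4% of all genes, and the median was -0.11. In the double mutant against wild-type 2 of 11 were above 0, beside 51.3% of all genes, with a median of -0.04. In each of these comparisons edgeR and DESeq2 called 0, where edgeR called 0.773%, 0.509% and 2.21% of all genes. In the same order 1, 0 and 2 genes had an unadjusted p under 0.05, beside 13.2%, 14.6% and 17.4% of all genes. The 1 gene under it in the double mutant against the cec-4 mutant was the septin gene unc-59, at 28.7 ± 0.392 CPM in the double mutant and 31.6 ± 0.882 CPM in the cec-4 mutant (-0.14 ± 0.06, adjusted p = 0.351). The values of this list ran from -0.20 for ccm-3 to 0.06 for cyk-7, a rachis component. These 3 genes were named after their values were seen.

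Germ cell markers were slightly higher as a sum in the libraries with the transgene. The sum was taken over 30 such genes, several of which somatic cells also express. It was 767 and 773 CPM in the double mutant and 746 and 739 CPM in lamin Y59C. In the cec-4 mutant it was 700.4 and 711 CPM, and in wild-type 680.1 and 729 CPM. A sum weighs abundant genes most, here car-1, gld-2 and mes-6 with medians of 136, 114 and 80.3 CPM, against 6.38 CPM for pgl-3. The libraries with the transgene did not overlap those without it, the nearest being 739 against 729 CPM, and the step was far smaller than that of ani-2. The cec-4 mutant sums lay within the range of the wild-type sums. Of the 26 members tested, 21 had a log2 value above 0 in the double mutant against the cec-4 mutant, with a median of 0.11; edgeR and DESeq2 called 0, and 6 had an unadjusted p under 0.05. Over all genes 49.4% were above 0, 13.2% had such a p and edgeR called 0.773%. In lamin Y59C against wild-type 16 were above 0 and the median was 0.05, beside 51.4% of all genes above 0. There edgeR and DESeq2 called 0, and 2 had an unadjusted p under 0.05. Over all genes 14.6% were under that p and edgeR called 0.509%. The markers nos-2, meg-1, meg-2 and meg-4 did not pass the filter and had at most 7 counts in a library. In the double mutant against wild-type edgeR called 1 member, beside 2.21% of all genes. This was cgh-1, a helicase of germ granules and other RNA bodies. It was at 68.2 ± 3.49 CPM in the double mutant and 52.9 ± 3.20 CPM in wild-type (0.36 ± 0.08, adjusted p = 0.0458, edgeR). That call ended when any wild-type or double mutant library was left out (adjusted p up to 0.338). The 21 oocyte and meiosis genes summed to 60.3 and 60.99 CPM in the double mutant and 57.3 and 56.9 CPM in the cec-4 mutant. Between these groups edgeR and DESeq2 called 0 of them, where edgeR called 0.773% of all genes. At an unadjusted p under 0.05 there were 2, beside 13.2% of all genes. Whether germ cell number or RNA has a part in the ani-2 difference was not tested.

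Genes of cell division had a median of 0.02 in the double mutant against the cec-4 mutant. Of 29 tested, edgeR and DESeq2 called 0, where 0.773% of all genes were called, and 1 had an unadjusted p under 0.05, beside 13.2% of all genes. The cyclin gene cyb-2.1 had the smallest adjusted p, at 1.11 ± 0.0767 CPM in the double mutant and 0.664 ± 0.0602 CPM in the cec-4 mutant (0.73 ± 0.24, adjusted p = 0.211). Against wild-type, 5 of 29 were above 0 in lamin Y59C (median -0.06), 5 in the cec-4 mutant (-0.04) and 10 in the double mutant (-0.03). Of all genes 51.4%, 51.9% and 51.3% were. In the double mutant 20 of 29 were above 0 against the cec-4 mutant and 18 against lamin Y59C, beside 49.4% and 50.8% of all genes. For the interaction it was 22, beside 49.1%. In the double mutant against the cec-4 mutant, edgeR and DESeq2 called 0 of 4 adult yolk and sperm genes and 10 larval tissue genes. There 0 of these tested genes had an unadjusted p under 0.05. In lamin Y59C against wild-type 3 of the 10 larval tissue genes were under that p, beside 14.6% of all genes. Set against lamin Y59C, the double mutant had 3, beside 13.2%, and the interaction had 3, beside 10.1%. Against wild-type, 1 was under it for the cec-4 mutant and 1 for the double mutant, beside 4.88% and 17.4%. Whether tissue make-up differed between genotypes was not tested.

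**Figure D3:**
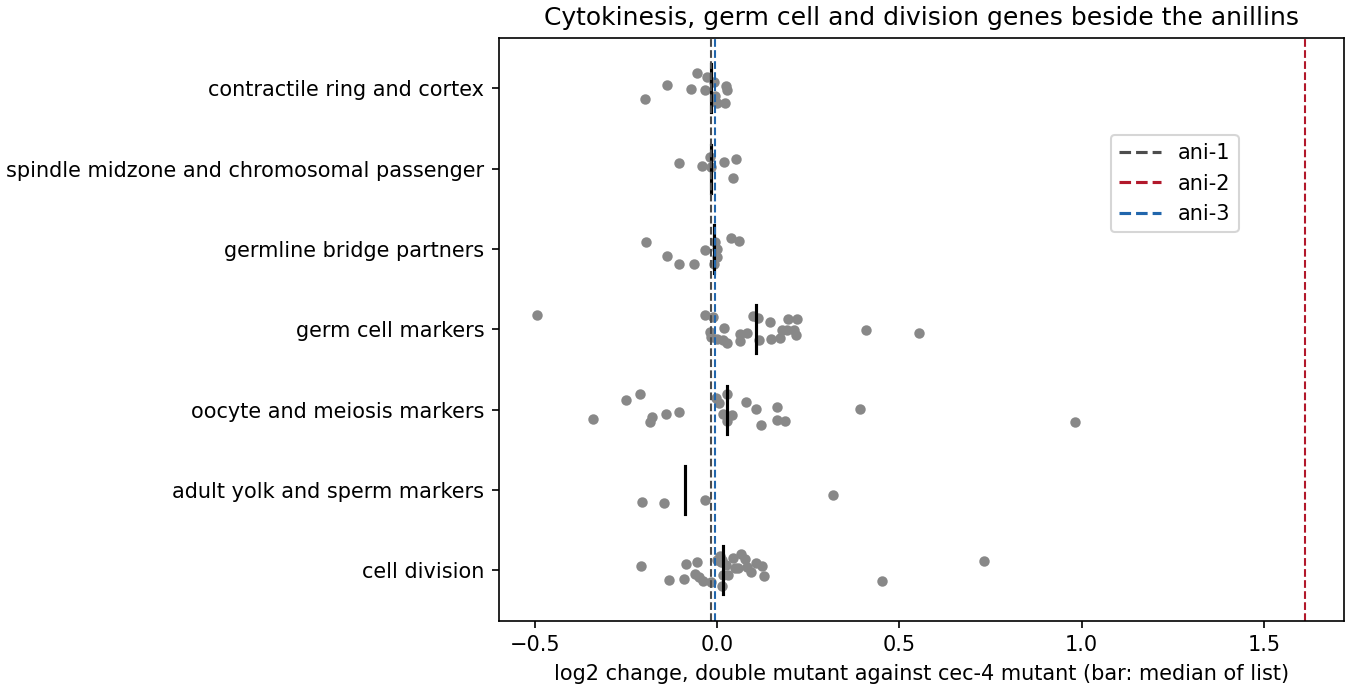
Log2 change in the double mutant against the cec-4 mutant of each tested gene in 7 lists (points) with the list median (bar) and the 3 anillins (dashed lines). No point of any list reaches the line of ani-2 at 1.61, and the medians lie between -0.09 and 0.11.

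The genes whose levels over the 8 libraries were most like those of ani-2 were sought among 9691 genes whose mean reached 5 CPM, by Pearson's r of log2 CPM. The highest value was that of unc-119, the marker gene carried on the transgene (r = 0.996). It was at 43.1 and 43.3 CPM in the double mutant and 41.5 and 41.8 CPM in lamin Y59C, against 24.3 and 22.4 CPM in the cec-4 mutant and 23.4 and 22.5 CPM in wild-type. It rose by 0.89 ± 0.06 in the double mutant against the cec-4 mutant (adjusted p = 0.000438), less than ani-2 did. Next came the serpentine receptor gene srr-4 (0.966), vsra-1 (0.963), Y94H6A.10 (0.962) and T01G1.2 (0.960). In these 4 genes the double mutant against the cec-4 mutant gave changes of 0.19, 0.22, 0.29 and 0.18, none of them called. Against wild-type only Y94H6A.10 of the 4 was called. Its change was 0.36 in lamin Y59C (adjusted p = 0.0404, edgeR) and 0.36 in the double mutant (adjusted p = 0.0183, edgeR). There 0.509% and 2.21% of all genes were called. Each of these correlations rests on the step between libraries with and without the transgene, and all points share their library with ani-2. With only library totals as the scaling, unc-119 and Y94H6A.10 were still among the 5 most like ani-2.

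**Figure D4:**
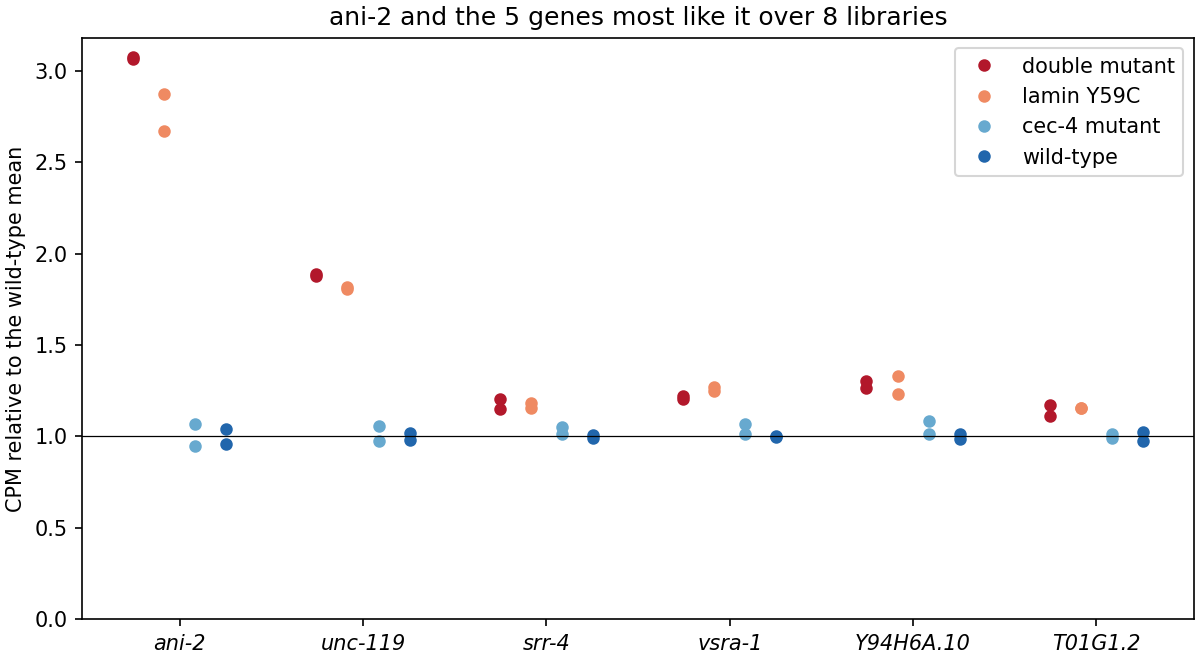
CPM of ani-2 and of the 5 genes most like it, per library and relative to the wild-type mean, by genotype (2 points each). The double mutant and lamin Y59C points lie above the cec-4 mutant and wild-type points in all 6 genes, at about 3 times the wild-type mean for ani-2 and closer to it for the others.

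Within the family no such likeness was seen: over the 8 libraries r was -0.59 between ani-1 and ani-2, 0.31 between ani-2 and ani-3 and 0.05 between ani-1 and ani-3. The gene most like ani-1 was F54B11.5 (r = 0.993), which was not among the first 5 with library totals as the scaling, where dlg-1 led (r = 0.981). With either scaling the gene most like ani-3 was mrps-6, a mitochondrial ribosomal protein gene (r = 0.962, or 0.951 with library totals).

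Neighbours of ani-2 on chromosome II were then read. No gene in the annotation overlaps an anillin gene. Downstream, 199 bases from ani-2 on the same strand, K10B2.4 was at 38.2 and 37.9 CPM in the double mutant and 36.3 and 34.2 CPM in the cec-4 mutant (0.11 ± 0.06, adjusted p = 0.452). Next to it, C32D5.12 lies 2153 bases from ani-2 and had few reads, with 58 and 74 counts in the double mutant and 69 and 53 counts in lamin Y59C, against 38 and 49 counts in the cec-4 mutant and 36 and 60 counts in wild-type. As CPM it had 1.78 and 2.37 in the double mutant and 2.17 and 1.67 in lamin Y59C, against 1.24 and 1.28 in the cec-4 mutant and 1.13 and 1.06 in wild-type, so the libraries with the transgene were all higher. The change was 0.71 ± 0.22 in the double mutant against the cec-4 mutant (adjusted p = 0.197) and 0.82 ± 0.22 in lamin Y59C against wild-type (adjusted p = 0.149).

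On the other side, lin-23, which encodes an F-box protein that restrains cell division, lies 5935 bases from ani-2. It was at 98.2 and 97.1 CPM in the double mutant and 98.9 and 89.5 CPM in lamin Y59C, against 78.1 and 77.6 CPM in the cec-4 mutant and 80.6 and 81.7 CPM in wild-type. All 4 libraries with the transgene were again higher, but the share of all genes that separate the libraries in this way is not given here. It rose by 0.33 ± 0.06 in the double mutant against the cec-4 mutant (adjusted p = 0.0372) and by 0.27 ± 0.06 in the double mutant against wild-type (adjusted p = 0.0480), and had 0.21 ± 0.06 in lamin Y59C against wild-type (adjusted p = 0.1496). The call against the cec-4 mutant ended when any cec-4 mutant, double mutant or wild-type library was left out (adjusted p up to 0.218), while the value stayed at 0.32 to 0.34. The call against wild-type ended in 8 of 14 alternatives (adjusted p up to 0.309).

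Between them, the lectin gene clec-88 lies 354 bases from ani-2 and had lower values with the transgene. It had 12 and 11 counts in the double mutant and 9 and 8 counts in lamin Y59C, against 12 and 20 counts in the cec-4 mutant and 19 and 29 counts in wild-type. As CPM it had 0.368 and 0.352 in the double mutant and 0.284 and 0.252 in lamin Y59C. It had 0.392 and 0.523 in the cec-4 mutant and 0.596 and 0.515 in wild-type. The libraries with the transgene were thus all lower, the nearest by 0.368 against 0.392 CPM at 12 counts each. The change was -0.36 ± 0.34 in the double mutant against the cec-4 mutant (adjusted p = 0.728) and -1.02 ± 0.34 in lamin Y59C against wild-type (unadjusted p = 0.0124, adjusted p = 0.208, edgeR). The next gene, ctsa-4.1, had 0.38 ± 0.11 in the double mutant against the cec-4 mutant (adjusted p = 0.152) and -0.11 ± 0.11 in lamin Y59C against wild-type (adjusted p = 0.683).

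A wider window, added after these values were seen, took the 37 other tested genes with a midpoint within 100 kb. Of these lin-23 was the only gene called in the double mutant against the cec-4 mutant, where 0.773% of all genes were called. There 15 were above 0 and 6 had an unadjusted p under 0.05 (13.2% over all genes), with a median of -0.02. In lamin Y59C against wild-type edgeR called 0 of them, where 0.509% of all genes were called. There 11 were above 0 and 7 had an unadjusted p under 0.05 (14.6% over all genes), with a median of -0.07. Named after its values were seen, ttc-39B had -0.31 ± 0.07 in the double mutant against the cec-4 mutant (adjusted p = 0.0904) and -0.35 ± 0.07 in lamin Y59C against wild-type (adjusted p = 0.0745). Neighbours of ani-2 thus had values on both sides of 0, and no cause was tested. Where the transgene is integrated is not given in the sources used here.

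**Figure D5:**
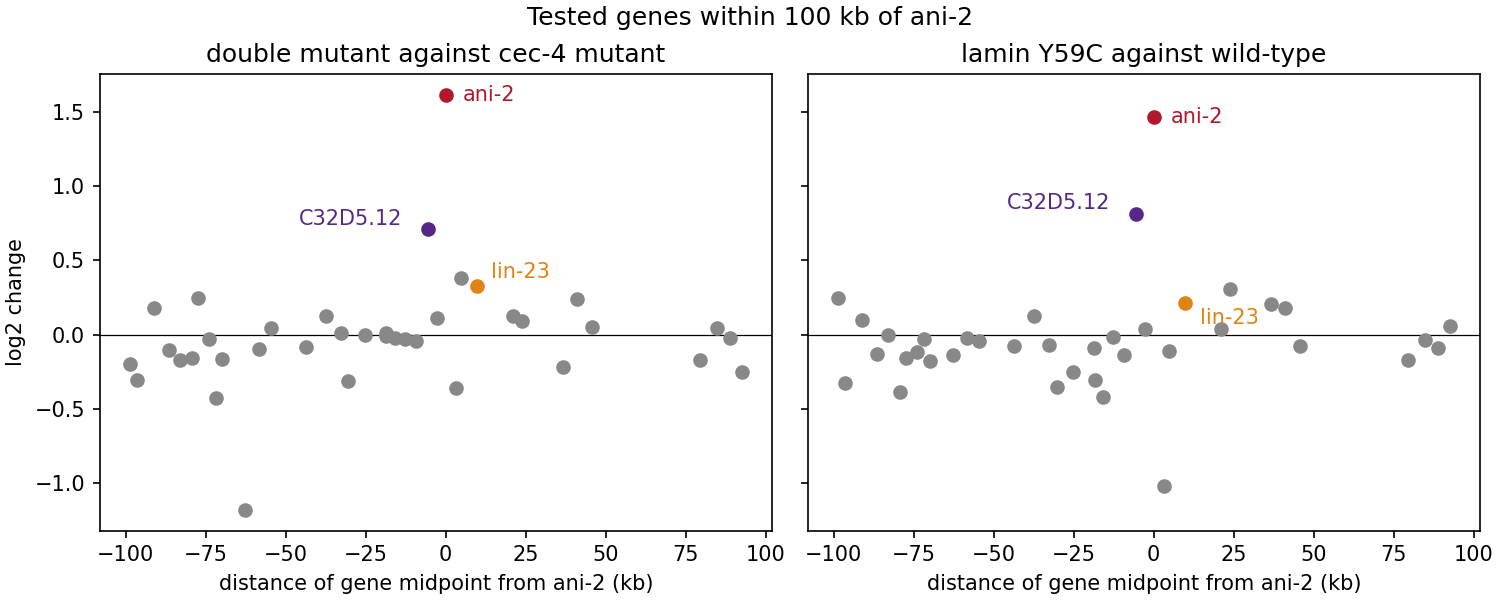
Log2 change of tested genes by the distance of their midpoint from that of ani-2, for the double mutant against the cec-4 mutant (left) and lamin Y59C against wild-type (right, the contrast that chose ani-2). In both panels ani-2 and C32D5.12 are the highest points, and lin-23 lies at 0.33 and 0.21.

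Near ani-1, the adjacent gene Y49E10.18, named after its values were seen, fell by 0.40 ± 0.08 on the log2 scale in the double mutant against the cec-4 mutant (adjusted p = 0.0470). This call ended when any cec-4 mutant, double mutant or wild-type library was left out (adjusted p up to 0.292). None of the 3 tested neighbours of ani-3 was called in any of the 6 comparisons.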

How the data were processed

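The authors deposited a table of whole-number read counts per gene and library; the submitters' processing notes name Bowtie, edgeR 3.24.0 and the build ce10. The counting tool, its annotation, its use of strand and its handling of reads that match several genes are not stated in the sources. A second deposited table, on the log2 scale, was not used. Counts were fitted with edgeR 4.0.16 (R 4.3.3): filterByExpr removed 6037 genes, libraries were scaled by TMM, and the quasi-likelihood F-test (two-sided) used all 8 libraries with 1 mean per genotype. Benjamini-Hochberg adjustment was made per comparison, for 6 comparisons, and genes were called at an adjusted p under 0.05. The SE is the log2 change over the root of F. The fit was tested on simulated data. Alternatives were DESeq2 1.42.0, its size factors, library totals, no filter, the compared groups alone, a replicate block and each library left out. Genes were matched by ID to WBcel235, whose positions are given without conversion from ce10; reference sequences were not used. PCR copies carry no molecular identifiers, so Poisson intervals cover counting error only. Members, gene lists and tests were chosen with earlier results of these data known. Named genes were the members, the called or lowest-p genes of each list, the 5 genes most like each member and 3 protein-coding neighbours on each side of ani-2; not all are printed. 1 of the gene lists is not reported here.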

Additional observations from a re-analysis of the deposited data

How the results depend on the processing

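The rise of ani-2 in the double mutant against the cec-4 mutant kept its direction and its call under all 14 alternatives. Leaving out 1 library at a time, it was 1.53 to 1.70. The letters a and b did not pair the libraries in the same way in all genotypes. The differences of a from b correlated at 0.45 between lamin Y59C and the double mutant. Between the cec-4 mutant and each of these the correlation was -0.48 and -0.47, and with wild-type it was -0.20 to 0.16. The spread between libraries was thus partly shared across genotypes, and its cause was not tested. With a replicate block the change of ani-2 was 1.61 (adjusted p = 0.00104, edgeR). The block reduced the called genes of this comparison to 58, against 111. No change of ani-1 or ani-3 was called under any alternative. Signs that turned were of changes near 0: with library totals alone, the change of ani-1 was 0.0021 for the cec-4 mutant against wild-type, -0.012 for the double mutant set against lamin Y59C and -0.014 as an interaction, and that of ani-2 was 0.031 for the cec-4 mutant against wild-type, or 0.0022 with those groups fitted alone. Leaving out 1 library, ani-1 ranged from -0.066 to 0.0038 for the cec-4 mutant against wild-type and from -0.053 to 0.021 in the double mutant against the cec-4 mutant, ani-2 from -0.086 to 0.081 for the cec-4 mutant against wild-type, and ani-3 from -0.094 to 0.085 in the double mutant against the cec-4 mutant. The number of called genes ranged from 11 (without double mutant b) to 238 (DESeq2) in the double mutant against the cec-4 mutant, 8 (without lamin Y59C a) to 238 (DESeq2) against 73 in lamin Y59C against wild-type, 3 to 11 (DESeq2) against 3 in the cec-4 mutant, 6 (without double mutant a or b) to 236 (DESeq2) against 97 in the double mutant against lamin Y59C, 37 (without double mutant a) to 440 (without cec-4 mutant b) against 317 in the double mutant against wild-type, and 1 (without lamin Y59C a) to 75 (DESeq2) against 5 for the interaction. The cause of these shifts was not tested. The calls of lin-23, Y49E10.18, cgh-1 and Y94H6A.10 did not hold in every alternative. At 246 to 807 counts per library, counting error limits ani-2 to 3.52% to 6.38% and cannot resolve small differences between genotypes.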
